A study of Homo sapiens with 8 samples.

Results

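The genes described here are 9 genes of the p53 and RB pathways: MDM2, CDKN1A, CDKN2A, CDKN2B, RB1, CCND1, CDK4, E2F1 and MYC. They were chosen by name, and every peak in a gene body or within 10 kb of it was assigned to the gene. They are 9 of 19970 protein-coding genes in the annotation (GENCODE 44, GRCh38, chromosomes 1 to 22 and X). Together they have 18 annotated promoters of 31339, and 34 of the 52105 open regions of the series lie in or near them. A promoter is a cluster of annotated starts no more than 250 bp apart, and a peak was counted at a promoter where it overlapped the 500 bp on either side.

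Open chromatin was mapped in U2OS, a human osteosarcoma cell line, by FAIRE-seq, which recovers DNA that is not wrapped in nucleosomes after formaldehyde fixation. There were 8 libraries in 4 groups of 2: untreated wild type (WT), WT with interferon gamma (IFNγ), untreated ZBTB48 knockout (KO), and KO with IFNγ at 250 U/ml. Each line is 1 clone, WT_4 or WT_5 and KO_C5 or KO_D2, and each clone gave 1 untreated and 1 treated library, so a genotype rests on 2 clones. The labels give 24 h of treatment, but a legend on chromatin accessibility in the paper states a longer one, so the duration is uncertain.

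The p53 arm of this network runs from DNA damage to the transcription factor p53, which switches on CDKN1A and its own inhibitor MDM2, a ubiquitin ligase that marks p53 for degradation. The RB arm holds cells before S phase: CDKN2A and CDKN2B encode inhibitors of CDK4, CDK4 with cyclin D1 (CCND1) phosphorylates RB1, and phosphorylated RB1 releases E2F1. CDKN2A connects both arms, since its p16 product inhibits CDK4 and its ARF product, read from a separate promoter, inhibits MDM2. MYC is a transcription factor that drives growth and binds the E-box. ZBTB48 is a zinc finger protein that binds the telomeric repeat, and IFNγ is a cytokine of the immune response.

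The letters of the promoters are shown before the measurements, because several of the peaks below either covered or missed the sites they hold. Each stretch comes from the GRCh38 reference, is written 5′ to 3′ on the strand of the gene, and has its motif match in capitals. In all, 4 motifs were searched on both strands within 500 bp of the first start: the telomeric repeat TTAGGG, the E2F sites TTTCCCGC, TTTGGCGC, TTTCGCGC and TTTGCCGC, the E-box CACGTG, and the p53 response element, a pair of half-sites with no spacer. An E2F site was present in 7 of the 18 windows and in 8.76% of all 31339 windows, an E-box in 5 of 18 and 17.3% of all, and TTAGGG in 2 of 18 and 28.5% of all. Windows of the same gene can overlap and a window can hold several matches, so these 7 windows hold 8 distinct E2F places and the 5 hold 6 E-boxes. A p53 element with at most 1 mismatch was found in none of the 18 windows and in 0.147% of all. With at most 2 mismatches, a limit set after the first search, it was found in 3 of 18 (2 places) and in 1.96% of all.

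The 2 p53 elements have 2 mismatches each. The MDM2 element lies in the first intron, before the start of the intronic promoter P2 (chr12:68808902-68809001), and the CDKN1A element lies over an upstream start of that gene (chr6:36676444-36676473):
MDM2 P2: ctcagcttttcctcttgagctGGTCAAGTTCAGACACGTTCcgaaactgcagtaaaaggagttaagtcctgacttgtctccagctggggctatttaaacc
CDKN1A upstream start: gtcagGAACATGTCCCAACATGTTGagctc

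The E2F sites before the starts of E2F1 (chr20:33686386-33686445, minus strand; 1 site is on the opposite strand), RB1 (chr13:48303684-48303743) and CCND1 (chr11:69640796-69641056) are shown next. The capitals in CCND1 mark first TTAGGG, on the opposite strand, and then the E2F site:
E2F1: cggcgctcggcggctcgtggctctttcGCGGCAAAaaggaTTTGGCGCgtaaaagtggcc
RB1: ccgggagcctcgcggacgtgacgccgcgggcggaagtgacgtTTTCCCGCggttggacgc
CCND1: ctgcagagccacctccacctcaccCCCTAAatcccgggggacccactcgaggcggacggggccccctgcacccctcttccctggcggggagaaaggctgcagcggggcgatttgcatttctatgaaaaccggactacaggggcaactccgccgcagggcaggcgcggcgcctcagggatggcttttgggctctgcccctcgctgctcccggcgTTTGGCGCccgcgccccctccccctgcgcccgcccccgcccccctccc

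CDK4 (chr12:57752448-57752597, minus strand) has 3 E-boxes in the 150 bases before its first start. The ARF promoter of CDKN2A (chr9:21994412-21994711, minus strand) has an E2F site on the opposite strand, and the promoter of CDKN2B (chr9:22009306-22009605, minus strand) has none of these matches:
CDK4: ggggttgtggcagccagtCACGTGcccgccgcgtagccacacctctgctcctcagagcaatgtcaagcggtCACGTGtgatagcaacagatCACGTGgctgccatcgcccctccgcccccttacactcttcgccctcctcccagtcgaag
CDKN2A ARF: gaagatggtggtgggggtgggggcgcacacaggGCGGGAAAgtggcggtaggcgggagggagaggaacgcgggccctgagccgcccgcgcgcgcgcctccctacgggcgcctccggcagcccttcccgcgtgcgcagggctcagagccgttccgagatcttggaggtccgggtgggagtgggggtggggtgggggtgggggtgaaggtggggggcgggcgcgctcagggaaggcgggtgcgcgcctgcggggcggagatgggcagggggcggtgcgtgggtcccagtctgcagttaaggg
CDKN2B: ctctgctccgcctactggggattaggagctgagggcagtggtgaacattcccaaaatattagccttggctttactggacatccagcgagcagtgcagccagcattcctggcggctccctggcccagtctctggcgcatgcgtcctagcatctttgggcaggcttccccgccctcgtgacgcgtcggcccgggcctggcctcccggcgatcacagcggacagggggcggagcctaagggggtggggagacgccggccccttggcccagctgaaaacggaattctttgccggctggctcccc

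Peak lists held between 16730 and 37533 peaks per library on these chromosomes, with more in the treated than in the untreated library for WT_5, KO_C5 and KO_D2 and fewer for WT_4. Read depth is not in the deposited lists. The strength of a peak is therefore given as its fold enrichment over local background, a ratio, and as its percentile within its own list by −log10 p, where the strongest peak stands at 100. A peak stood at the ZBTB48 promoter in each library, with percentiles from 83.7 to 95.3 in the WT clones and from 64.0 to 90.1 in the KO clones, but peak lists do not show whether the protein was lost. By the promoter of the canonical transcript, of 8 mesenchymal and osteoblast marker genes VIM had a peak everywhere, COL1A1 had one in the 4 IFNγ libraries and in untreated WT_5 (gained in 3 clones), SPARC had one in 5 libraries, and RUNX2, SP7, ALPL, TWIST1 and COL1A2 had none, although another promoter of RUNX2 had one in all 8. None of 6 B-cell marker genes had one, and of 5 epithelial or hepatic marker genes EPCAM had one in 3 libraries (and at another promoter in 4 others), KRT19 and CLDN4 in 1 each, and CDH1 and ALB in none.

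A comparison of genotypes met 1 limit that touches every genotype difference below. The summit pileup (overlapping fragments at the summit) and the local background of each peak were recovered by solving the peak caller's Poisson formulas for fold and −log10 p. At promoters whose summits lay within 20 bp of each other in both libraries compared, log2 local background had a correlation of 0.979 to 0.983 between any 2 WT libraries and 0.988 to 0.989 between any 2 KO libraries. Between a WT and a KO library it was 0.472 to 0.511, over 3958 to 5881 promoters a pair. Pileup did not split this way, with 0.748 to 0.949 among WT libraries, 0.711 to 0.925 among KO libraries and 0.748 to 0.932 between them. The libraries of a genotype thus had a nearly common pattern of background across promoters, also where clone and treatment differed, and it was another pattern in the other genotype. Input DNA was sequenced in the study too, and whether the peak caller used it as a control, and for which libraries, is not given in the sources used here. Genotype and background pattern cannot be told apart in fold enrichment, −log10 p or percentile, so genotype differences are given below on the pileup scale as well. By pileup the 2 libraries of clone KO_C5 had a correlation of 0.797 with each other. The untreated one had 0.865 with treated WT_4 and 0.748 with treated WT_5. The treated one had 0.796 and 0.932 in the same order. Each IFNγ change given below for KO_C5 compares these 2 libraries, and the cause of their difference in pileup was not tested.

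Of the 18 promoters, 10 had a peak in all 8 libraries, against 38.0% of all promoters, and 4 had one in no library, against 41.7%. The 4 without a peak all belonged to CDKN2A. No promoter of the 9 genes had a peak in every WT and no KO library, a pattern found at 0.204% of all promoters, and none gained a peak with IFNγ in 3 or more of the 4 clones, found at 0.491%. Counted by library, 11 to 14 of the 18 promoters had a peak. The plot of promoter percentiles shows how far the genes lay apart: E2F1 stood at 94.5 or above in every list, CDK4 between 81.4 and 99.0, and CCND1 between 17.5 and 66.2.

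**Figure D1:**
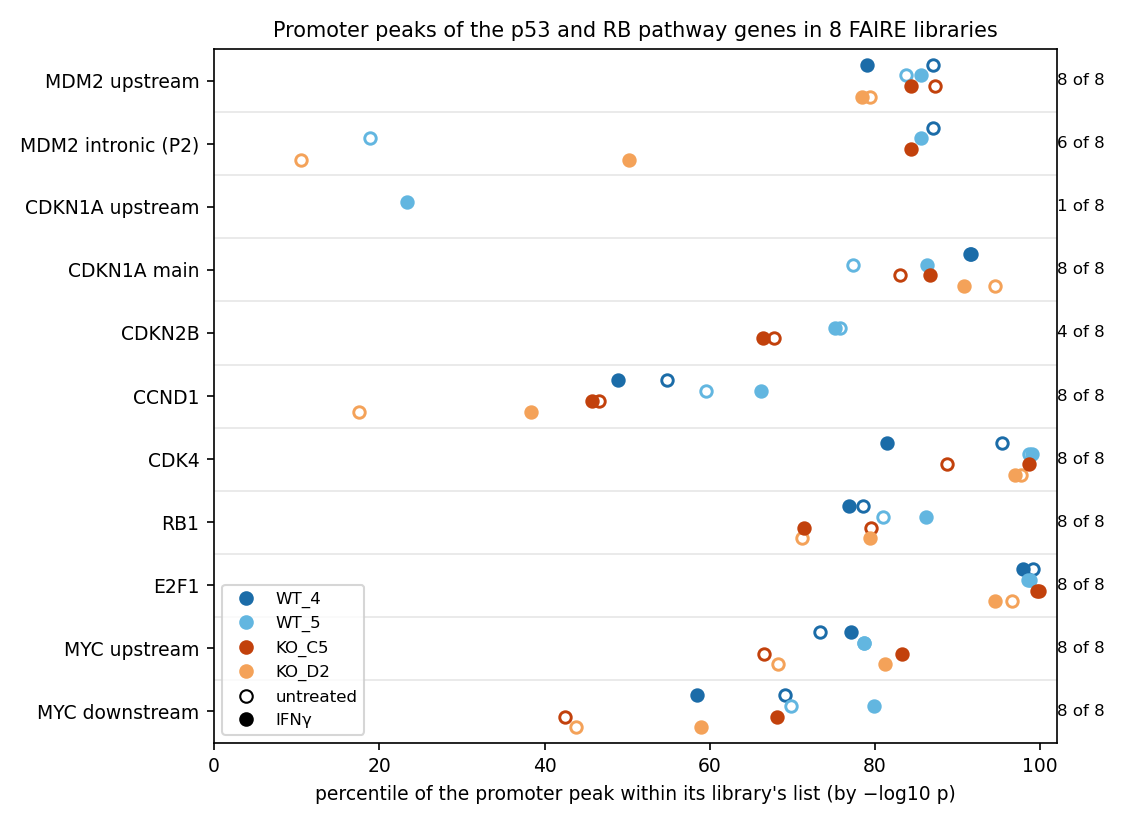
Percentile of the strongest promoter peak within each library's list (horizontal axis, percent) for 11 promoters (vertical axis), with clones in colour, untreated libraries open and IFNγ libraries filled; the number at the right is the number of libraries with a peak. E2F1 lies between 94.5 and 99.8, CCND1 between 17.5 and 66.2, and CDKN2B has points for WT_5 and KO_C5 alone.

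MDM2 (chr12:68808177-68845544), the inhibitor of p53, had an open upstream promoter in every library. Its peak there had a fold enrichment of 61.2 in WT_4, 31.1 in WT_5, 44.1 in KO_C5 and 30.5 in KO_D2 without treatment, and 30.8, 41.2, 37.5 and 20.3 in the same order with IFNγ. The 2 genotypes overlapped, as did the treatments. Its centred log2 fold was lower with IFNγ in 4 of 4 clones, by 0.36 ± 0.21 on average (limma, adjusted p = 0.857, and 0.243 with the clone as a term). The median IFNγ change over all 11910 promoters was −0.08, and the share lower in 4 of 4 clones was not counted. In KO the centred log2 fold at MDM2 was higher than in WT by 0.27 ± 0.28 (limma, adjusted p = 0.848). Before centring the mean fold was 41.1 in WT and 33.1 in KO, and by pileup the centred difference was −0.0063 ± 0.28 (limma, adjusted p = 1.00). An E2F site before the upstream start was inside the peak in all 8 libraries. The window of the intronic promoter P2, the one that p53 uses, was overlapped by a peak in 6 libraries. The peak reached the annotated starts of P2 in treated WT_5 and treated KO_D2 alone, and ended before them in the others. In 3 of them, untreated WT_4 and the treated WT_5 and KO_C5, 1 peak of 1156 to 1222 bp ran from the upstream promoter to the window of P2 with its summit at the upstream promoter. A separate and much weaker peak stood before P2 in untreated WT_5 (fold 5.93, pileup 11), untreated KO_D2 (6.27, pileup 11) and treated KO_D2 (11.9, pileup 28). The p53 element printed above lay inside the peak in all 6. Untreated KO_C5 and treated WT_4 had no peak at P2, and the libraries with and without one did not divide by genotype or by treatment.

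CDKN1A (chr6:36676460-36687337), which encodes the CDK inhibitor p21, had its peak at the main promoter in all 8 libraries. Fold enrichment there was 58.0 in WT_4, 18.3 in WT_5, 34.4 in KO_C5 and 49.5 in KO_D2 without treatment, and 38.0, 33.2, 35.6 and 32.0 with IFNγ. The WT clones lay at both ends of this range in the untreated state, and the KO clones between them. The upstream start with the p53 element had a peak in 1 library, treated WT_5, with a fold of 5.39 and a pileup of 14 fragments. At the main promoter the median-centred log2 fold was higher in KO by 0.71 ± 0.40 (SE, 2 clones a genotype), which did not pass the test (limma, adjusted p = 0.734). On the pileup scale the difference was 0.02 ± 0.38 (limma, adjusted p = 1.00). Local background at this promoter stood at 1.78 to 1.88 times the library median in WT and 0.803 to 0.907 times in KO. A second strong peak lay 1.64 to 1.82 kb after the main start in all 8 libraries, with folds of 35.5 in WT_4, 42.7 in WT_5, 37.3 in KO_C5 and 35.8 in KO_D2 without treatment, and 28.0, 59.9, 59.5 and 34.3 with IFNγ. Its percentile was above that of the promoter in 5 libraries, those of WT_5 and KO_C5 and treated KO_D2, and below it in 3. An exonic region farther in had a weaker peak in 4 libraries, with folds of 4.66 to 11.5.

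CDKN2A (chr9:21967752-21995301) had no peak in any library at any of its 4 promoters, in its gene body of 27550 bp or within 10 kb of it. This includes the p16 promoter and the ARF promoter with its E2F site. Of 19970 protein-coding genes, 2937 had no peak in any library under the same rule. CDKN2B (chr9:22002903-22009305), the neighbour that encodes the CDK inhibitor p15, had a promoter peak in WT_5 and KO_C5, with and without IFNγ, and in neither library of WT_4 or KO_D2. Its fold enrichment was 22.4 in WT_5 and 21.9 in KO_C5 without treatment, and 27.5 and 20.2 with IFNγ. The percentiles were 75.7, 67.7, 75.1 and 66.5 in the same order, and pileup was 61, 55, 54 and 56 fragments. A second, weaker peak centred 0.54 kb downstream of the start appeared in the same 4 libraries, with folds of 8.25 to 14.1.

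Only 21 promoters of 31339, or 0.067%, had a peak in these 4 libraries and no other. The pattern was noticed after the values were seen and crosses both genotype and treatment. The 2 nearest promoters with peaks, those of MTAP on one side and DMRTA1 on the other, had peaks in all 8 libraries, so the absence in WT_4 and KO_D2 did not extend to them. Between CDKN2B and DMRTA1 a site 94.1 kb upstream of CDKN2B had a peak in 5 libraries: both of WT_5, both of KO_C5 and treated KO_D2. When weak peaks were dropped, by a minimum −log10 q of 3 or fold of 4, or the lists were shortened to the shortest, the CDKN2B promoter still had its peak in 4 libraries. These filters only remove peaks, and the 4 peaks were too strong to be dropped. They could not restore a peak in WT_4 or KO_D2, so nothing is read from this about the pattern. A list without a peak does not tell closed chromatin from too few reads.

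**Figure D2:**
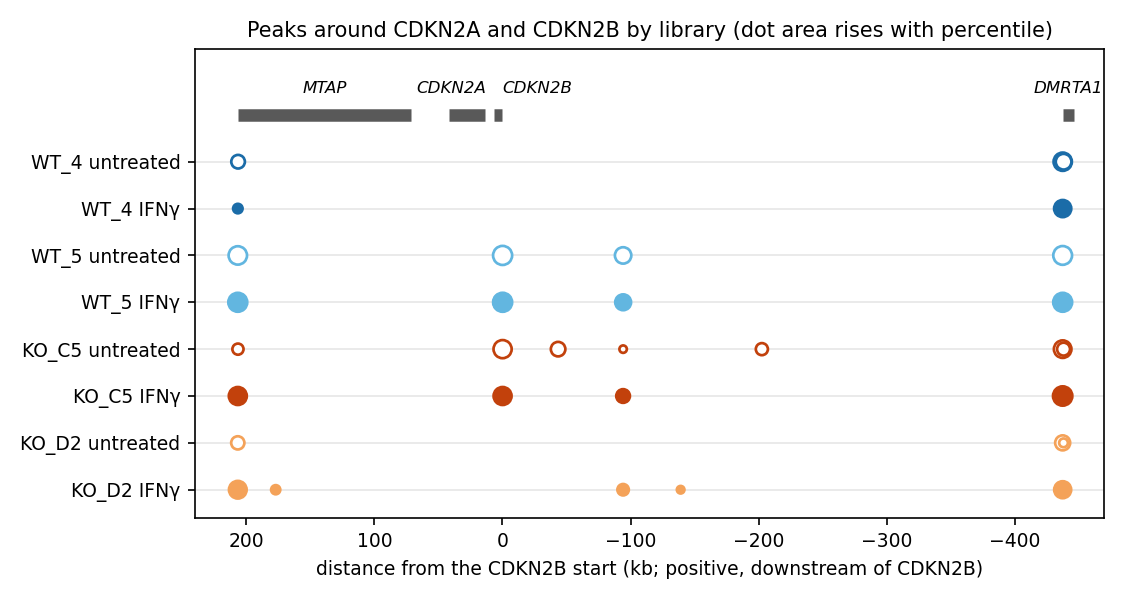
Peaks by library (vertical axis, clones in colour, untreated open, IFNγ filled) against distance from the CDKN2B start in kb (horizontal axis), with gene bodies as grey bars and dot area rising with the percentile of the peak. Dots at the CDKN2B start appear in the 4 libraries of WT_5 and KO_C5 alone, none lies over CDKN2A, and MTAP and DMRTA1 have a dot in all 8 rows.

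CCND1 (chr11:69641156-69654474), which encodes cyclin D1, had a promoter peak of middling strength in all 8 libraries. Its percentile was 54.8 in WT_4, 59.6 in WT_5, 46.6 in KO_C5 and 17.5 in KO_D2 without treatment, and 48.9, 66.2, 45.7 and 38.3 with IFNγ. All 4 WT values were above all 4 KO values, as at 7.12% of the 11910 promoters with a peak in every library, while all KO values were above all WT values at 0.302%, none of them here. Of the 10 member promoters in this comparison CCND1 was the 1 with this order. The KO mean was 37.0 ± 12.9 (SD over 2 clones) and the WT mean 57.4 ± 7.80, a difference of −20.3 percentile points (exact permutation test over 4 clones, two-sided, p = 0.333, the smallest possible, adjusted p = 1). The median difference over all promoters tested was −3.66 points. With all lists at equal length the WT and KO values overlapped. Summit pileups ranged from 26 to 39 fragments among WT libraries and from 17 to 34 among KO libraries, and the centred log2 difference was −0.31 ± 0.33 (limma, adjusted p = 1.00).

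The body and flanks of CCND1 were open at more places than its promoter. A region beginning 993 bp downstream of the start had a peak in all 8 libraries, at folds of 13.5 to 39.3, and was stronger than the promoter in each. A site 2.01 kb upstream had a peak in 7 libraries, with folds of 8.01 in WT_4, 26.8 in WT_5 and 7.22 in KO_C5 without treatment, and 8.19, 54.4, 19.8 and 5.60 in WT_4, WT_5, KO_C5 and KO_D2 with IFNγ. WT_5 stood highest in both states. The telomeric repeat letters in the CCND1 promoter were inside a peak in 3 libraries, both of WT_5 and treated KO_C5, where the peak was wide, and the E2F site was inside one in 7.

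CDK4 (chr12:57747727-57756013), the kinase that cyclin D1 activates, had folds of 85.8 in WT_4, 65.9 in WT_5, 38.9 in KO_C5 and 53.7 in KO_D2 without treatment, and 30.1, 91.6, 60.2 and 38.6 with IFNγ. The lowest value of all was from treated WT_4 and the highest from treated WT_5, and all 4 KO values lay between them. All 4 E-boxes near its start were inside the peak in all 8 libraries. A site in an intron of CDK4, at the start of the neighbouring gene MARCHF9, had a weak peak in 3 WT libraries and no KO library, with folds of 6.22, 6.55 and 8.66. The share of all regions with this pattern was not counted, so it is not read as a genotype difference. Of all promoters, 1.13% had a peak in at least 3 more WT than KO libraries and 0.00319% the reverse. The promoter differed by 1.85 percentile points between KO and WT (exact permutation test over 4 clones, two-sided, p = 1, adjusted p = 1) and by 0.0861 ± 0.26 in centred log2 pileup (limma, adjusted p = 1.00). Of the 4 regions in the flanks of the gene, all at starts of neighbouring genes, 2 to 5 libraries had a peak, with folds of 4.12 to 21.8.

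RB1 (chr13:48303744-48599436), the pocket protein that restrains E2F, had a promoter peak in all 8 libraries, with its E2F site inside. Its percentile was 78.5, 81.0, 79.5 and 71.1 in untreated WT_4, WT_5, KO_C5 and KO_D2, and 76.9, 86.2, 71.4 and 79.4 with IFNγ. These values differed between genotypes by −5.30 points (exact permutation test over 4 clones, two-sided, p = 0.333, adjusted p = 1), and they overlapped. By pileup the centred log2 difference was 0.0148 ± 0.29 (limma, adjusted p = 1.00). The other region of the gene with a peak in every library lay 229 kb into the body, where the gene RCBTB2 starts. Of 3 further regions in and beside RB1, 1 to 3 libraries had a peak.

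E2F1 (chr20:33675477-33686385), the transcription factor that RB1 holds back, had a promoter peak near the top of each list. The percentile was 99.1, 98.8, 99.8 and 96.6 in untreated WT_4, WT_5, KO_C5 and KO_D2, and 97.9, 98.5, 99.6 and 94.5 with IFNγ. It was lower with IFNγ in each clone, as at 1.94% of promoters, and higher in each clone at 15.9%. The mean change was −0.94 points (exact permutation test over 8 libraries, two-sided, p = 0.514, adjusted p = 1). The centred log2 fold was lower by 0.18 to 0.69 in the 4 clones, on a scale where the median change over all promoters was −0.08. The share of promoters lower in each clone on this scale was not counted. The mean change at E2F1 was −0.40 ± 0.24 (limma, adjusted p = 0.857). With clone as a term of the model, which uses the fact that each clone gave both libraries, the unadjusted p was 0.00383 and the adjusted p was 0.133 (limma). Pileup gave the same size of change, −0.40 ± 0.11 with the clone term (limma, adjusted p = 0.156). Between genotypes the centred log2 difference was 0.33 ± 0.29 by fold (limma, adjusted p = 0.801) and −0.0724 ± 0.30 by pileup (limma, adjusted p = 1.00), while local background was 1.43 to 1.53 times the library median in WT and 0.869 to 0.990 times in KO. Both E2F sites in its promoter were inside the peak in all 8 libraries. The peaks of untreated WT_4 and of both KO_C5 libraries were 997 to 1053 bp wide, against 488 to 538 bp in the others. Past the far end of the gene, at the start of NECAB3, a weaker region was open in all 8 libraries, with folds of 9.22 to 37.7.

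MYC (chr8:127735434-127742951) has 4 annotated promoter clusters, and 2 peaks account for those with a peak in every library. The upstream peak had its summit 718 to 791 bp after the first start and served the first and second clusters, which are counted as 1 peak here. Its percentile was 73.3, 78.6, 66.6 and 68.3 in untreated WT_4, WT_5, KO_C5 and KO_D2, and 77.1, 78.7, 83.3 and 81.2 with IFNγ. It was higher with IFNγ in each clone, by 0.0483 points in WT_5 and by 3.81 to 16.7 in the others. The mean change was 8.35 points, against a median of 2.14 over all promoters tested (exact permutation test over 8 libraries, two-sided, p = 0.0571, adjusted p = 1). With lists at equal length the direction no longer held in each clone. The centred log2 fold changed by 0.12 ± 0.24 with IFNγ (limma, adjusted p = 0.906) and was −0.24 in WT_5. An E2F site after the second start was inside this peak in all 8 libraries.

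The downstream MYC peak, at the fourth cluster within the gene, had folds of 26.3, 15.3, 7.03 and 8.41 in untreated WT_4, WT_5, KO_C5 and KO_D2, and 15.4, 27.0, 12.3 and 7.84 with IFNγ. The open region of this peak also lies within 500 bp of a start of the gene CASC11. All WT folds were above all KO folds, with means of 21.0 ± 0.25 in WT and 8.90 ± 1.1 in KO (SD over 2 clones). This order was common on the fold scale: it held at 23.7% of the 11910 promoters and at 5 of the 10 member promoters (CCND1, RB1 and 3 of MYC, with 4 distinct peaks), and the opposite order at 0.0084% and at 0 of 10. Folds were lower in KO libraries at large, by a median of 0.57 on the log2 scale, and after centring the difference was −0.64 ± 0.32 (limma, adjusted p = 0.721). On the pileup scale it was −0.12 ± 0.31 (limma, adjusted p = 1.00), and at the upstream peak it was −0.18 ± 0.33 by fold (limma, adjusted p = 0.910) and 0.36 ± 0.28 by pileup (limma, adjusted p = 1.00). Local background at the downstream peak was 1.44 to 1.5 times the library median in WT and 2.08 to 2.22 times in KO. At the upstream peak it was 1.33 to 1.5 times in WT and 1.84 to 2.25 times in KO.

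**Figure D3:**
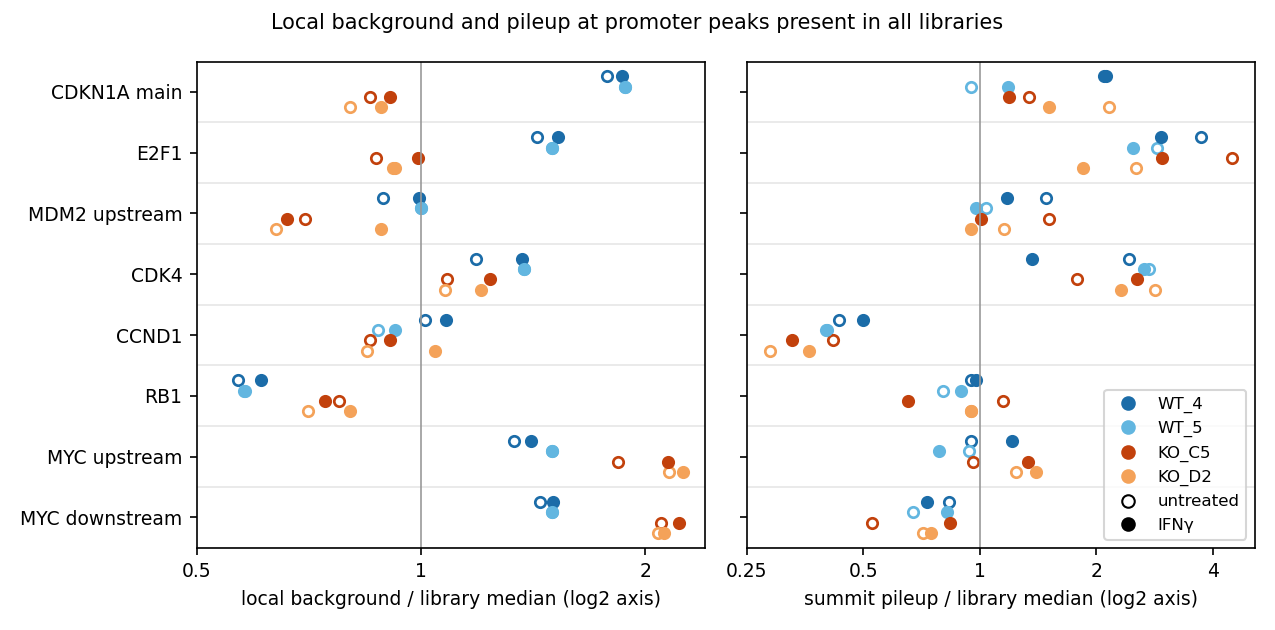
Local background (left) and summit pileup (right) of 8 promoter peaks present in every library, each divided by the median of its library over 9383 promoters (log2 axes), with clones in colour, untreated open and IFNγ filled. In the left panel WT and KO points do not overlap at CDKN1A, E2F1, MDM2, RB1 and both MYC peaks and overlap at CDK4 and CCND1. KO lies at 0.803 to 0.907 at CDKN1A and 2.08 to 2.22 at the downstream MYC peak. In the right panel WT and KO points overlap at all 8. The share of all promoters without overlap was not counted, so the separation is not read as a trait of these genes.

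The 10 member promoters with a peak in every library hold 8 distinct peaks, since the first and second promoters of MDM2 share 1 and so do those of MYC. None passed an adjusted p of 0.05 for genotype, for IFNγ or for the difference in IFNγ response between genotypes. Over all 11910 promoters the share called was 0% in each of the 3 fits (limma), and 796, 381 and 896 had an unadjusted p under 0.05. The centred log2 fold was higher with IFNγ in both WT clones and lower in both KO clones at 2 of the 10, RB1 and the main CDKN1A promoter, as at 9.07% of all, and the reverse held at 0 of the 10 and 4.03% of all. With pileup in place of fold the count for genotype fell from 796 to 32, and those for IFNγ and the difference in response were 322 and 892. For the exact permutation tests of percentile no promoter passed an adjusted p of 0.05, and 111 of 11910 had an unadjusted p under 0.05 for IFNγ. The smallest p of these tests was 0.333 for genotype and 0.0286 for IFNγ, too coarse for single promoters to pass after adjustment.

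**Figure D4:**
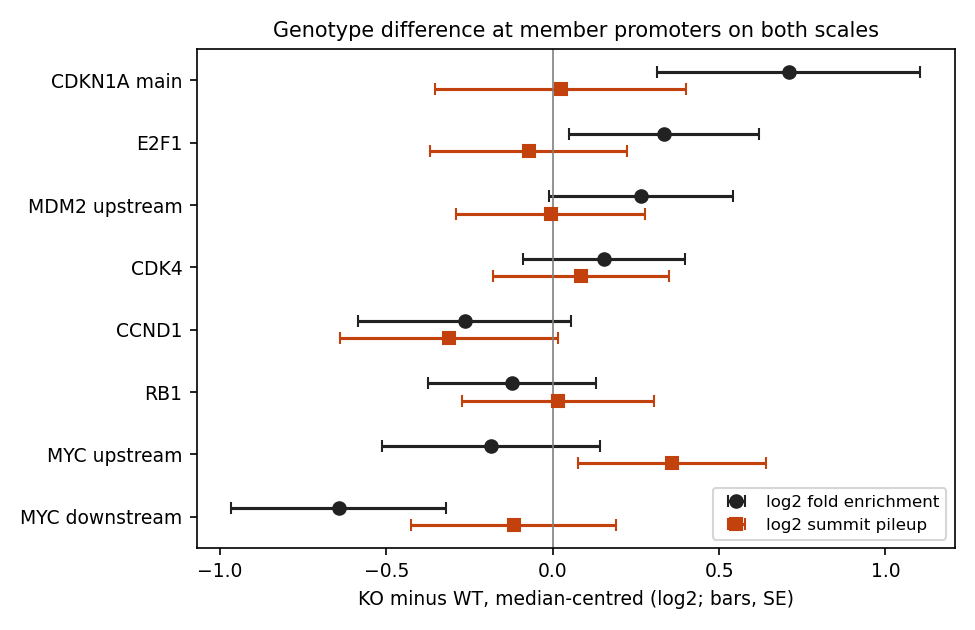
KO minus WT difference with its SE (horizontal axis, log2, each library centred on its median) at 8 promoter peaks (vertical axis), by fold enrichment (black circles) and by summit pileup (orange squares), from limma on 2 clones a genotype. CDKN1A is at 0.71 by fold and 0.02 by pileup, and the downstream MYC peak at −0.64 and −0.12.

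Of the 34 regions in or near the 9 genes, 11 (32.4%) were open in every library and 8 (23.5%) in 1 library, while over all regions the shares were 22.2% and 38.9%. CCND1 and CDK4 had 7 regions each, RB1 5, CDKN1A and MYC 4 each, MDM2 3, E2F1 and CDKN2B 2 each, and CDKN2A none. Treated WT_5, with the longest list, had a peak in 29 of the 34, and untreated KO_D2, with the shortest, in 13. No region had a peak in all libraries of 1 genotype and none of the other, or in all treated and no untreated libraries. The share of all regions with these patterns was not counted, so nothing is read from their absence here.

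Upstream of MDM2, CDKN1A, CCND1 and MYC lay 1 site each with a peak in 6 or 7 libraries. A site 11.4 kb upstream of the main CDKN1A start (chr6:36667074-36667492) had a peak in 7 libraries. Its fold was 19.4 in WT_5, 9.51 in KO_C5 and 13.1 in KO_D2 without treatment, with no peak in WT_4, and 6.67, 30.3, 29.1 and 15.3 in WT_4, WT_5, KO_C5 and KO_D2 with IFNγ. Pileup was 91, 25 and 34 fragments in the first 3 and 20, 115, 101 and 59 in the others. WT_5, KO_C5 and KO_D2, which had a peak in both states, each had the higher fold and the higher percentile in the treated library. The site 1.90 kb upstream of MYC, within 500 bp of a start of the gene CASC11, was similar. It had no peak in untreated WT_4, folds of 23.7, 8.40 and 15.1 in untreated WT_5, KO_C5 and KO_D2, and 6.57, 31.2, 23.2 and 15.9 with IFNγ. WT_5 had the highest fold in each treatment at both sites. WT_4 had the lowest fold with IFNγ at both, and no peak without it.

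Of the 11 member regions with a peak in every library, 2 had a higher percentile with IFNγ in each clone, the region inside CCND1 and the upstream MYC promoter, against 15.9% of all 11551 such regions, and 1 had a lower one, the E2F1 promoter, against 1.85%. When regions with a peak in at least 1 library of each clone were counted and an absent peak was taken as lower, 5 of 15 were higher (19.4% of all) and 1 lower (1.66% of all). The 3 that this rule added, the upstream sites of CDKN1A, MYC and MDM2, each lacked a peak in some untreated library, so in those clones the rule itself set the direction and nothing is read from the count. The MDM2 site, 6.41 kb upstream, was weak throughout, with folds of 3.96 to 6.90 and pileups of 6 to 12 fragments, and had no peak in untreated KO. Under the same wider rule at equal list length, 1 of 13 member regions was higher in each clone, the upstream CDKN1A site, and 3 were lower, against 11.6% and 14.1% of all regions. Lists from treated cells were longer than those from untreated cells in 3 of 4 clones, and the part of list length in these changes was not tested beyond this.

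**Figure D5:**
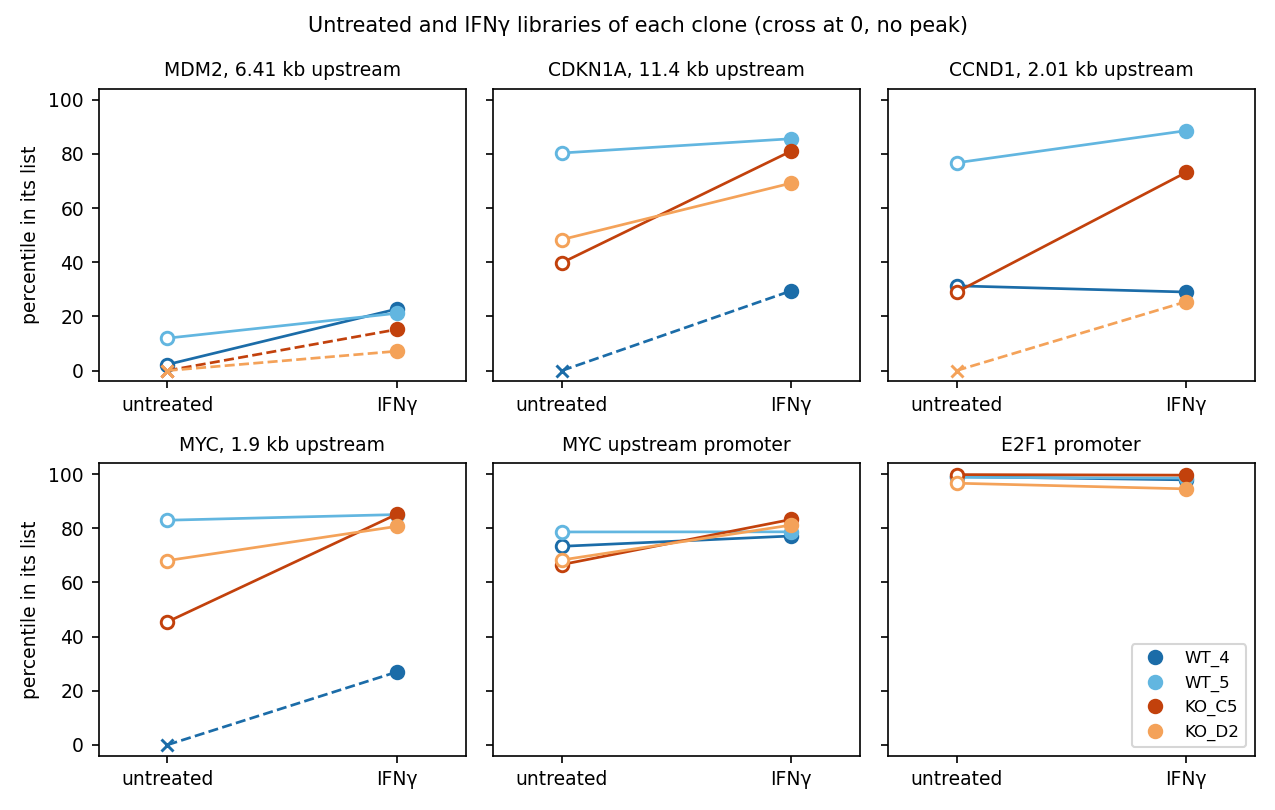
Percentile of the peak within its list (vertical axis) in the untreated and IFNγ library of each clone (lines, clones in colour) at 4 upstream sites and 2 promoters; a cross at 0 and a dashed line mark a library without a peak. The upstream CDKN1A site runs from no peak to 29.5 in WT_4 and from 39.8 to 81.1 in KO_C5, while E2F1 stays above 94 in every library.

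The wider pathway was largely open as well. By the promoter of the canonical transcript, 10 of 13 further p53 regulators, 20 of 23 p53 target genes, 21 of 24 RB pathway genes, 18 of 20 E2F target genes and 10 of 12 genes of the MYC network had a peak in all 8 libraries. Among the 9 members it was 7, and among 19606 protein-coding genes 9383, or 47.9%. None of these promoters was called by limma in any of the 3 comparisons. Percentiles of all WT libraries were above those of all KO libraries at 0, 2, 2, 1 and 1 of the 10, 20, 21, 18 and 10 promoters in the same order, and at 656 of the 9383. All KO were above all WT libraries at 1 promoter of the MYC network, that of MXD4, at none of the other lists and at 29 of the 9383. The median KO minus WT difference in percentile was −0.0485 points for the p53 regulators, −1.97 for the p53 targets, −2.62 for the RB pathway, −1.88 for the E2F targets and −3.97 for the MYC network, against −3.55 for all genes. The median IFNγ change was 1.75, 1.19, 1.06, 2.33 and 1.17 points in the same order, against 2.14. Of all promoters of these lists, 2 had a peak in at least 3 more WT than KO libraries, as had 1.13% of all 31339 promoters, both at other than the canonical start. The reverse held at none of them and at 0.00319% of all, and none gained or lost a peak with IFNγ in 3 or more clones. One of FAS, a death receptor gene, was open in each of the 4 WT libraries but in 1 KO library, and one of MXI1, a MYC antagonist, in 3 WT and no KO libraries. The share of the promoters of these lists with such a difference was not computed, so neither is read as a genotype difference.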

How the data were processed

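FAIRE-seq peak lists of 8 U2OS libraries were used, 1 list per library. Per the submitters' processing notes and the study's methods, the authors trimmed paired-end reads with Trimmomatic, aligned them to GRCh38 with Bowtie2 2.2.5, filtered alignments by mapping quality (SAMtools 1.14) and ran MACS2 2.2.7.1 on each library, and deepTools 3.5.1 was also named. How controls and duplicate reads were handled is not given in the sources used here. The deposited lists give for each peak its fold enrichment over local background, a ratio. They also give −log10 p and −log10 q of the summit, as the authors' peak caller wrote them. The deposited score was made from −log10 q and was not used. The depth of each library is unknown from the files, so no counting interval was computed.

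Peaks were assigned to promoters of GENCODE 44 (basic protein-coding transcripts; starts within 250 bp clustered; 500 bp on either side; at least 1 bp of overlap; strongest peak by −log10 p). Percentiles were ranks of −log10 p within a list. Summit pileup and local background were solved from fold and −log10 p. Percentiles were compared by exact permutation over 4 clones (6 assignments) or 8 libraries (70), and by sign flips within clones (16). Log2 fold, centred on each library's median, was tested with limma 3.58.1 (R 4.3.3) across 11910 promoters, with Benjamini-Hochberg adjustment at 0.05. Both methods were tested on simulated data. Python 3.11.15, numpy 2.4.6, pandas 2.3.3 and scipy 1.17.1 were used.

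The labels name the clone of each library, which pairs its untreated with its treated library. The correlation of their deviations from the group means was 0.614 for WT and 0.429 for KO. Between same-numbered libraries of WT and KO, which by the labels share only a number, it was 0.421 untreated and −0.158 treated. The KO value was thus close to the untreated value across genotypes, so the pairing in KO rests on the labels. Samples of a group are separate clones, and p-values for genotype and for the difference in response rest on the spread between them. For IFNγ, the permutation over 8 libraries and the main limma fit do not use the pairing within clones. Their p-values therefore do not measure how the response varies between clones. The genes, lists and tests were chosen with earlier results of these data known. All 9 genes were named. A gene of the other lists was named where a promoter had a peak in at least 3 more libraries of 1 genotype, gained or lost its peak with IFNγ in at least 3 clones, or passed limma, at most 6 per list and comparison. MXD4 was named outside this rule, for the order of its percentiles. Alternatives were stricter peaks (−log10 q of at least 3, fold of at least 4), equal list lengths, percentile among promoter peaks, windows of 250 and 1000 bp, a margin of 5 kb, other centring, the replicate block and leaving out each library. The pileup scale, the looser p53 element and the IFNγ direction of open regions at equal length, by fold and in regions with a peak in every library were added after seeing the data.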

Additional observations from a re-analysis of the deposited data

Results flagged for a closer look

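At 2 promoters the IFNγ response had opposite signs in the 2 genotypes, with both WT clones up and both KO clones down. At RB1 the centred log2 fold changed by 0.04 in WT_4 and 0.08 in WT_5, and by −0.71 in KO_C5 and −0.06 in KO_D2, a difference in response of −0.45 (KO minus WT; limma, adjusted p = 0.696). At the main CDKN1A promoter it changed by 0.03 and 0.36 in WT and by −0.19 and −0.56 in KO, a difference of −0.56 (limma, adjusted p = 0.650). This pattern was found at 9.07% of the 11910 promoters and its reverse at 4.03%. It did not hold on the percentile scale, where RB1 changed by −1.60 and 5.19 in WT and by −8.06 and 8.22 in KO, and CDKN1A by −0.0371 and 9.01 in WT and by 3.62 and −3.69 in KO. Neither difference passed the test, and several of the changes in single clones were close to 0.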

How the results depend on the processing

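Under each alternative run 0 promoters of the 9 genes passed limma, as in the fit reported, and 10 promoters with a peak in all libraries were found under each left-out library. With lists at equal length, 0 promoters had all WT above all KO, 0 were higher and 3 lower with IFNγ in each clone, and the sign turned for CCND1 with IFNγ (−9.96 points), RB1 with IFNγ (−5.13), MDM2 in KO minus WT (2.23) and MYC upstream in KO minus WT (5.16). By percentile among promoter peaks 0 were higher and 3 lower with IFNγ in each clone, and the values were −2.68 for RB1, 0.49 for MDM2 and 1.51 for MYC. With a window of 250 bp 1 was higher. Of the open regions, 1 was higher and 3 were lower at equal length, 0 were lower by fold, and 2 were higher when only regions with a peak in every library were counted. The cause was not tested.

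Without centring, limma called 526 of all promoters for genotype (1 up, 525 down, with a median shift of −0.57 over all promoters) and 3 for IFNγ, and E2F1 in KO minus WT was −0.24. On the pileup scale E2F1 in KO minus WT was −0.0724, with and without the replicate block. In the IFNγ fit the replicate block makes each clone its own control. There it called 8 promoters by fold (8 up) and 2 by pileup, none of the 9 genes. In the genotype fit the block pairs WT_4 with KO_C5 and WT_5 with KO_D2, which share only a replicate number, and it changed no call. The sign-flip test within clones cannot give a p below 0.125, its value at E2F1 and the upstream MYC peak, so it could not change a call. For the difference in IFNγ response 1 promoter was called with a window of 250 bp and 1 with 1000 bp.

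Leaving out each library in turn, 1 to 21 promoters were called for the difference in response, with 21 without untreated WT_5 and 19 without treated WT_5. Promoters lower with IFNγ in each clone numbered 1 to 3, and those with all WT above all KO 1 to 2. The IFNγ change ranged from −3.88 to 10.2 percentile points at CCND1, −3.21 to 3.11 at CDK4, −0.87 to 4.85 at CDKN1A, −1.60 to 0.0904 at E2F1 and −1.64 to 3.29 at RB1, and from −0.0776 to 0.30 on the log2 fold scale at MYC. KO minus WT ranged from −1.63 to 5.33 points at CDK4, −0.21 to 4.29 at CDKN1A, −3.49 to 0.56 at MDM2 and −6.28 to 2.06 at MYC. With 2 clones a genotype the exact test of genotype cannot go below 0.333.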
